A study of Mus musculus with 9 samples.

Results

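The bone morphogenetic protein (BMP) pathway was followed in total lung RNA of mice through 10 of the 16165 genes of the deposited table. These 10 were chosen by name, with earlier results of these data known. They were the ligand genes Bmp2, Bmp4, Bmp5 and Bmp6, the receptor genes Bmpr2, Acvrl1 and Eng, and the target genes Id1, Id3 and Smad6. All 10 were found in the table and all 10 passed the filter on low values. In RefSeq on GRCm38.p6 Eng spans chr2:32646595-32682669, Acvrl1 chr15:101128522-101145336, Bmp6 chr13:38345716-38500314 and Smad6 chr9:63953076-64022085.

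The study measured 9 lung libraries in 3 groups of 3. Control mice received vehicle for 3 weeks. Their descriptions carry the letters ST and the word Normal, and those of the other mice the letters BT and the word Dox. What ST and BT stand for is not interpreted here. The other mice, labelled TGFα and taken here to carry a TGFα transgene switched by doxycycline (Dox), were on Dox for 6 weeks. Over the final 3 weeks 1 group of them was given vehicle and the other pirfenidone, which is used against fibrosis. Nothing in the sources used here gives the promoter behind the transgene, the strain, the age or the sex. The labels of the control mice name no Dox, so the transgene and Dox cannot be told apart, and no control mice on pirfenidone were analysed here. The labels do not say that each library came from a separate animal, so p values measure the spread between libraries. Libraries are numbered 1 to 3 within each group.

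BMP ligands bind pairs of type I and type II serine/threonine kinase receptors, which phosphorylate SMAD1, SMAD5 and SMAD9. These SMADs enter the nucleus with SMAD4 and switch on targets such as the Id genes and the inhibitory Smad6. In endothelial cells the type I receptor ALK1 (Acvrl1), the type II receptor BMPR2 and the co-receptor endoglin (Eng) form a receptor complex, and human mutations in these genes underlie hereditary haemorrhagic telangiectasia and heritable pulmonary arterial hypertension.

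Promoter sequence is shown for Smad6, Bmp6 and Eng, the 3 genes with the largest drops among the 10, and for Id3, whose level did not drop. Each window runs from 250 bases before to 50 bases after the start that the RefSeq promoter table on GRCm38.p6 uses, is written 5′ to 3′ on the gene's strand, and was available for 7 of the 10 genes. That start is the 5′ end of the gene's span for 6 of the 7, and for Smad6 it lies 26 bases inside the span. Capitals mark matches, on either strand, to 3 motifs known to bind BMP-activated SMADs or SMAD4: GGCGCC, GTCTAGAC and the bipartite BMP response element, a GC-rich box and the letters GTCT at a fixed distance.
Smad6 (chr9:64022010-64022309, - strand): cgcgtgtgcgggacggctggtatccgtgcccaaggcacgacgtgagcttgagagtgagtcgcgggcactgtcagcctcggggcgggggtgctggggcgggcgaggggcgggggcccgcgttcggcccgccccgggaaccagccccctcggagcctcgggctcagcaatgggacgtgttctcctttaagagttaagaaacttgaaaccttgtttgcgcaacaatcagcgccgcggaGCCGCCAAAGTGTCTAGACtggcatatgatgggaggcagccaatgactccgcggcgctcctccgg
Bmp6 (chr13:38345466-38345765, + strand): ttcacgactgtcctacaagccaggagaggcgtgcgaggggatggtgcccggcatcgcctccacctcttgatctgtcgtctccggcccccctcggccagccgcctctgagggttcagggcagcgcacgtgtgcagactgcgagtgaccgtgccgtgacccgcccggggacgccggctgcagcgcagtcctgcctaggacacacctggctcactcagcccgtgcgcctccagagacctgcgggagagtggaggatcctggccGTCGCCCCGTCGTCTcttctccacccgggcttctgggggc
Eng (chr2:32646345-32646644, + strand): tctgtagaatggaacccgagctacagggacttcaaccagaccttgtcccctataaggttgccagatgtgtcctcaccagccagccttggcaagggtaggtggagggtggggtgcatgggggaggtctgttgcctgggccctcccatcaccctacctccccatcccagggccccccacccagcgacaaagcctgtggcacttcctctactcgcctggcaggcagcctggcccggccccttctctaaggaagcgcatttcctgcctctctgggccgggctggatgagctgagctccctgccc
Id3 (chr4:136143572-136143871, + strand): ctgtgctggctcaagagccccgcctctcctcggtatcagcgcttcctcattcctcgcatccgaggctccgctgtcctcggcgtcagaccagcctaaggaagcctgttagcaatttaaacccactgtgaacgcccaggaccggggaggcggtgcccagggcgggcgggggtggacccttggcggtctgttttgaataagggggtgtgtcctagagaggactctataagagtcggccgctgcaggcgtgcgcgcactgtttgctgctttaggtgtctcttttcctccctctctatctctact

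In the Smad6 window GTCTAGAC spanned positions -4 to 3, with 0 the start used by the table, and the bipartite BMP response element spanned -15 to -1. The matches share their GTCT. In the Bmp6 window the bipartite BMP response element lay at 10 to 24. GGCGCC was found in the Bmpr2 window only among the 7, at -105 to -100. Of 32851 promoter windows of the same length in the table, 11.9% hold GGCGCC, 0.213% hold GTCTAGAC and 0.667% hold the bipartite BMP response element. The windows of Eng and Id3 held none of the motifs, and a match describes sequence, not occupancy. GC content was 66.3% for Smad6, 69.3% for Bmp6, 63.3% for Eng and 60% for Id3, against a median of 52.7% over all windows. CpG dinucleotides numbered 31 in the Smad6 window, 27 in Bmp6, 19 in Id3 and 6 in Eng, against a median of 7.

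The lung label was checked on markers. The alveolar type 2 gene Sftpc stood at 12880 to 21973 RPKM (reads per kilobase of a gene, corrected for sequencing depth), and the endothelial genes Pecam1 and Cdh5 stood at 124 to 322 and 105 to 306 RPKM. The libraries held 11428709 to 18874158 reads. Control 3 stood apart from the other controls, with 8629 RPKM over 5 macrophage markers against 398 and 476, of which Chil3 alone gave 8290 against 287 and 361 and the other 4 markers 339 against 111 and 115. It had the lowest value of its group in 8 of the 10 genes. TGFα vehicle 1 and 2 and pirfenidone 1 and 2 carried skeletal muscle transcripts, at 240 to 1290 RPKM over 8 markers, where the other 5 libraries had 3.31 to 12.1. Pirfenidone 3 had the highest value of its group in 8 of the 10 genes.

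In control lungs the receptors Acvrl1 and Eng were the most abundant of the 10, at 182 ± 38.3 and 151 ± 40.1 RPKM (SD, n = 3), with overlapping libraries. Id3 followed at 118 ± 12.8, Id1 at 108 ± 11.4, Smad6 at 78.7 ± 15.2, Bmp6 at 78.6 ± 19.5 and Bmpr2 at 61.0 ± 15.7. Among these neighbours only Id1 and Smad6 did not overlap. Bmp4 at 35.2 ± 5.33 and Bmp5 at 26.7 ± 6.96 overlapped each other, and Bmp2 at 2.30 ± 0.521 lay below them. In TGFα lungs on vehicle Id3 led at 124 ± 5.54 RPKM, above Acvrl1 at 77.8 ± 25.3 in every library. Bmp6 had moved to the ninth place, at 14.1 ± 5.42 RPKM.

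TGFα lungs on vehicle were compared with control lungs to ask how the pathway differed in the transgenic lung. Of the 10 genes, 6 fell: Bmp6, Smad6, Eng, Acvrl1, Id1 and Bmpr2. Bmp2 rose, and Bmp4, Bmp5 and Id3 did not pass the test. Over all 13849 genes tested, 23.3% passed, 11.2% lower and 12% higher. That total of 3222 genes was 1351 without TGFα vehicle 2, 1306 without TGFα vehicle 3, 1624 without control 1 and 1577 without control 2. The median log2 fold change was -0.77 over the 10 genes and 0.04 over all genes tested. The calls rest on limma's moderated test on log2(RPKM + 1), adjusted by Benjamini-Hochberg over all tested genes with a threshold of 0.05, and folds are ratios of mean RPKM.

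**Figure D1:**
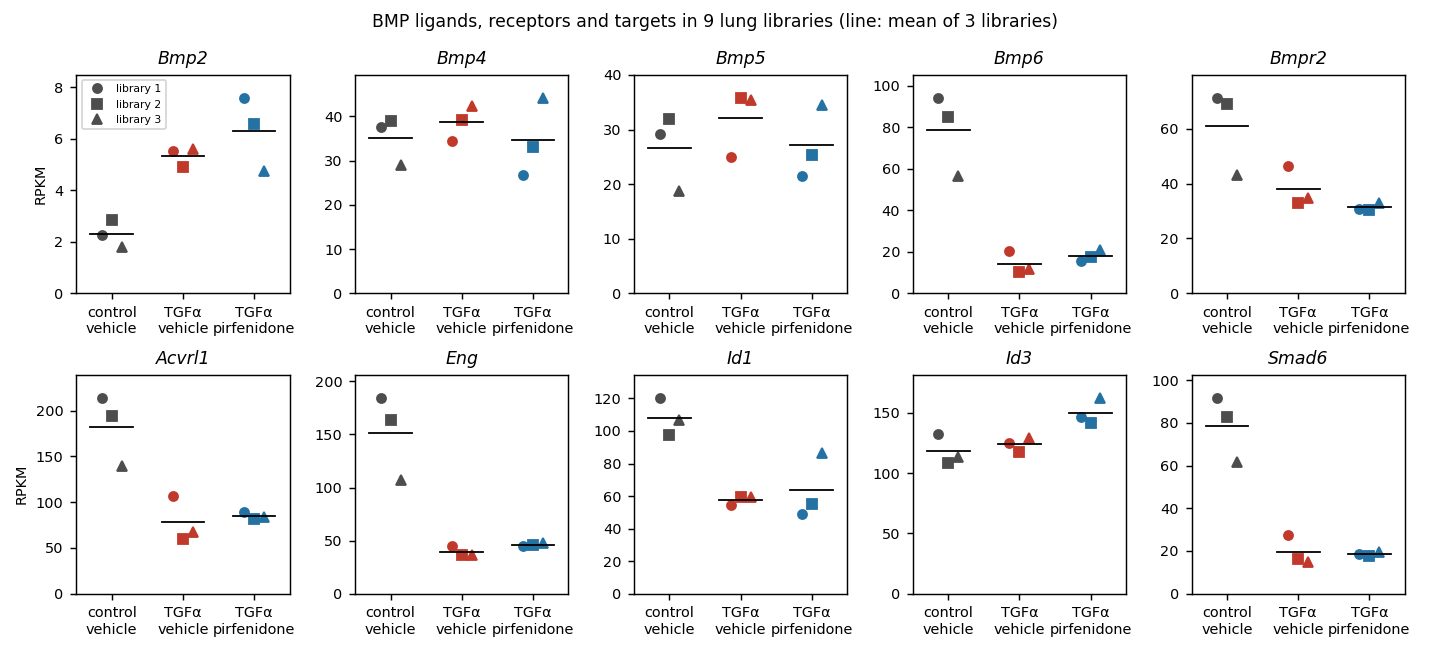
RPKM (vertical axis, from 0) of the 10 genes in each of 9 libraries, by group on the horizontal axis. Symbols give the library number within the group and the black line the mean of 3 libraries. Bmp6, Eng and Smad6 in both TGFα groups lie below every control library.

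Among the ligands, Bmp6, a BMP known for its part in iron sensing in the liver, changed most. It stood at 94.2, 85.0 and 56.7 RPKM in control libraries 1, 2 and 3 and at 20.3, 10.2 and 11.7 in TGFα vehicle libraries 1, 2 and 3. All 3 TGFα libraries were below all 3 controls, and the lowest control was also control 3. The fall was 5.59-fold (log2 fold change -2.43 ± 0.26 SE, adjusted p = 0.00145). Because the samples are whole lung, fewer cells of a type and less RNA per cell cannot be told apart here or in any result that follows.

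Bmp2, a ligand made by endothelium and other cells, went the other way. It stood at 2.25, 2.85 and 1.81 RPKM in controls and at 5.54, 4.89 and 5.62 in TGFα vehicle lungs, a 2.33-fold rise (log2 fold change 0.95 ± 0.17 SE, adjusted p = 0.00655). The groups did not overlap. These values rest on 109 to 378 reads per library, so Bmp2 is the least deeply counted of the 10.

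Bmp4, a mesenchymal and endothelial ligand with a role in lung branching, stood at 37.6, 38.9 and 29.1 RPKM in controls and at 34.5, 39.3 and 42.4 in TGFα vehicle lungs (log2 fold change 0.14, 95% interval -0.27 to 0.55, adjusted p = 0.606). Bmp5, a close relative of Bmp6 in sequence, stood at 29.2, 32.0 and 18.8 RPKM and at 25.0, 35.8 and 35.5 (log2 fold change 0.27, interval -0.27 to 0.82, adjusted p = 0.431). For both genes the groups overlapped. The make-up of the ligands differed accordingly: Bmp6 gave 53.3% to 57.7% of the summed RPKM of the 4 ligands in controls and 11.3% to 23.7% in TGFα vehicle lungs. Bmp4 gave 23.0% to 27.3% in controls and 40.4% to 44.5% in TGFα vehicle lungs.

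The endothelial receptors fell by unequal amounts. Eng stood at 184, 163 and 107 RPKM in controls and at 44.9, 36.0 and 36.4 in TGFα vehicle lungs, with no overlap. That was a 3.87-fold fall (log2 fold change -1.90 ± 0.18 SE, adjusted p = 0.00111). Acvrl1, the ALK1 gene, stood at 213, 194 and 139 RPKM in controls and at 107, 59.7 and 66.9 in TGFα vehicle lungs. It fell 2.34-fold (log2 fold change -1.24 ± 0.22 SE, adjusted p = 0.00702), also without overlap. TGFα vehicle 1 was the highest of its group for both.

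Bmpr2 had the smallest fall of the receptors, 1.60-fold (log2 fold change -0.65 ± 0.20 SE, adjusted p = 0.0439). Its values were 71.2, 68.9 and 43.0 RPKM in controls and 46.3, 33.1 and 34.7 in TGFα vehicle lungs. The groups overlapped, with TGFα vehicle 1 above control 3. The call was lost without TGFα vehicle 2 (adjusted p = 0.150), TGFα vehicle 3 (0.140), control 1 (0.139) or control 2 (0.141), and when only these groups were fitted (0.0766).

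Within a library, Eng was 0.862, 0.843 and 0.765 of Acvrl1 in controls and 0.421, 0.603 and 0.544 of it in TGFα vehicle lungs, on the RPKM scale. No library of one group reached the other. The exact two-sided permutation test gave p = 0.10, the smallest that 3 against 3 libraries allow, and 0.15 after Benjamini-Hochberg adjustment over 15 such tests.

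The target genes split. Smad6, which encodes an inhibitory SMAD that is induced by BMP signals and limits them, stood at 91.5, 82.6 and 61.9 RPKM in controls and at 27.7, 16.1 and 15.0 in TGFα vehicle lungs. It fell 4.01-fold (log2 fold change -1.98 ± 0.22 SE, adjusted p = 0.00166) without overlap. Id1, an inhibitor of basic helix-loop-helix transcription factors and a standard readout of BMP receptors, stood at 120, 97.4 and 107 RPKM and at 54.5, 59.2 and 59.6. It fell 1.87-fold (log2 fold change -0.89 ± 0.19 SE, adjusted p = 0.0122), again without overlap.

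Id3, which encodes a protein of the same family, stood at 133, 108 and 113 RPKM in controls and at 125, 118 and 129 in TGFα vehicle lungs, with overlap (log2 fold change 0.07, 95% interval -0.15 to 0.29, adjusted p = 0.629). The ratio of Id1 to Id3 was 0.906, 0.898 and 0.945 in controls and 0.437, 0.503 and 0.463 in TGFα vehicle lungs. These ratios did not overlap (exact two-sided permutation p = 0.10, the smallest possible; adjusted p = 0.15). Of the 10 genes 6 did not overlap between these groups, where 44.2% of all tested genes did not (25.4% higher and 18.8% lower).

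**Figure D2:**
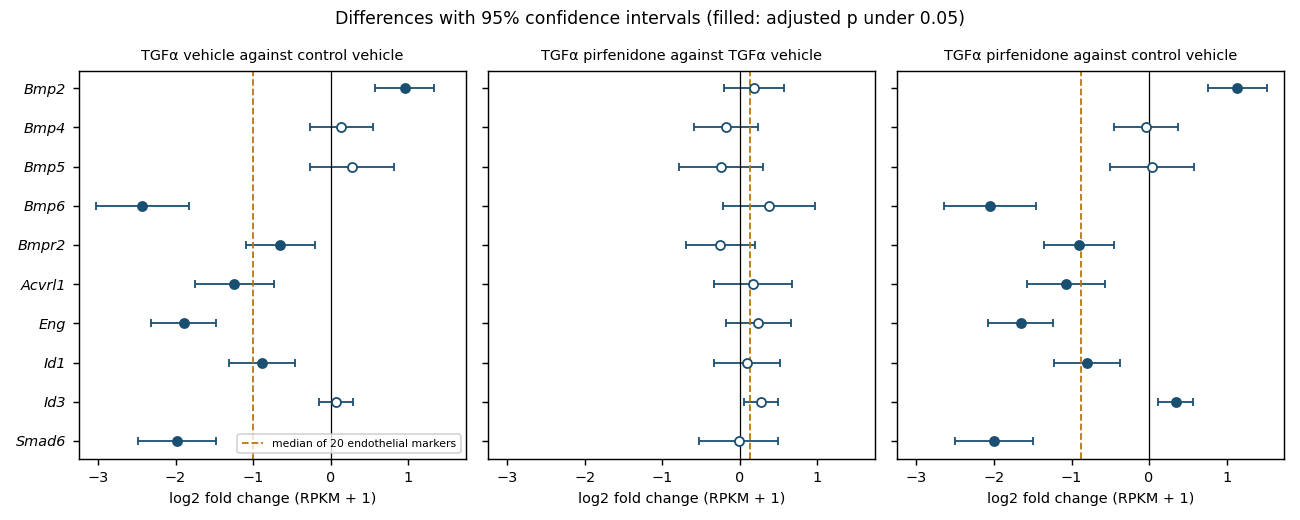
Log2 fold change of RPKM + 1 (horizontal axis) with its 95% confidence interval for the 10 genes in the 3 comparisons. Filled points passed an adjusted p of 0.05, and the dashed line is the median of 20 endothelial marker genes, -0.998 in the left panel. Eng, Smad6, Bmp6 and, by less, Acvrl1 lie left of that line in both comparisons with control, and no point is filled in the middle panel.

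Endothelial marker genes fell in the same libraries. Of 20 markers, all of them measured and none at 0, 17 were lower in TGFα vehicle lungs, with a median log2 fold change of -0.998. Emcn, Sox17 and Mmrn2 did not pass. The summed RPKM of the 20 ranged from 2016 to 2970 in controls and from 996 to 1472 in TGFα vehicle lungs. Cdh5, the endothelial cadherin, fell 2.14-fold (adjusted p = 0.00553) and Pecam1 fell 1.89-fold (adjusted p = 0.0116). Markers of other cells fell too, among them all 6 of cardiac muscle (summed RPKM of 269 to 577 in controls and 57.6 to 95.7 in TGFα vehicle lungs), all 5 of ciliated cells (314 to 405 and 114 to 179), all 6 of lymphocytes (71.97 to 102 and 31.4 to 32.1) and 3 of 5 of mesothelium (181 to 235 and 108 to 114). Not all lists fell. Of 6 alveolar type 2 markers 2 rose and 0 fell (15536 to 15791 in controls and 23251 to 25430 in TGFα vehicle lungs). Of 5 macrophage markers 0 passed. The part of these other cells in the falls of the BMP genes was not tested. Each gene was next taken relative to the mean log2(RPKM + 1) of the 20 endothelial markers in its own library, which gives its difference from these markers and not their part in its fall.

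Relative to the markers 7 of the 10 genes passed, where 85.8% of all tested genes did. On that scale Bmp6, Smad6 and Eng were still lower in TGFα vehicle lungs than in controls. Bmp6 differed by -1.46 ± 0.20 SE (log2, adjusted p = 0.000267), Smad6 by -1.02 ± 0.19 (adjusted p = 0.000767) and Eng by -0.93 ± 0.19 (adjusted p = 0.00104). Of all tested genes 0.534%, 74 in number, were called lower on this scale. The markers themselves were spread widely, with log2 fold changes from -1.69 (Cldn5) to 0.18 (Sox17). Other vascular genes, named after their values were seen, had falls near that of Eng: Plvap of the general capillary list (-2.18), Lyve1 of the lymphatic list (-2.05) and Ednrb of the aerocyte list (-1.80). Each had the largest fall of its list. The medians were -1.04 over 5 general capillary genes, -1.02 over 5 aerocyte genes and -0.69 over 3 tested lymphatic genes. Mmrn1 of the lymphatic list (0.09) and Tbx2 of the aerocyte list (-0.14) did not pass. Eng exceeded the marker mean by 0.60 to 0.87 in controls and lay 0.06 to 0.33 under it in TGFα vehicle lungs.

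Acvrl1, Bmpr2 and Id1 did not pass on the relative scale. Acvrl1 differed by -0.28 (95% interval -0.68 to 0.12, adjusted p = 0.175), and without TGFα vehicle 1 it passed at -0.35 (adjusted p = 0.0474). Bmpr2 differed by 0.32 (interval -0.08 to 0.71, adjusted p = 0.118), and with the median in place of the mean of the markers it passed at 0.43 (adjusted p = 0.0476). Id1 differed by 0.08 (interval -0.51 to 0.67, adjusted p = 0.797). Bmp2, Bmp4, Bmp5 and Id3 were called higher on this scale, as were 85.3% of all tested genes, a share that gives these calls no weight of their own.

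**Figure D3:**
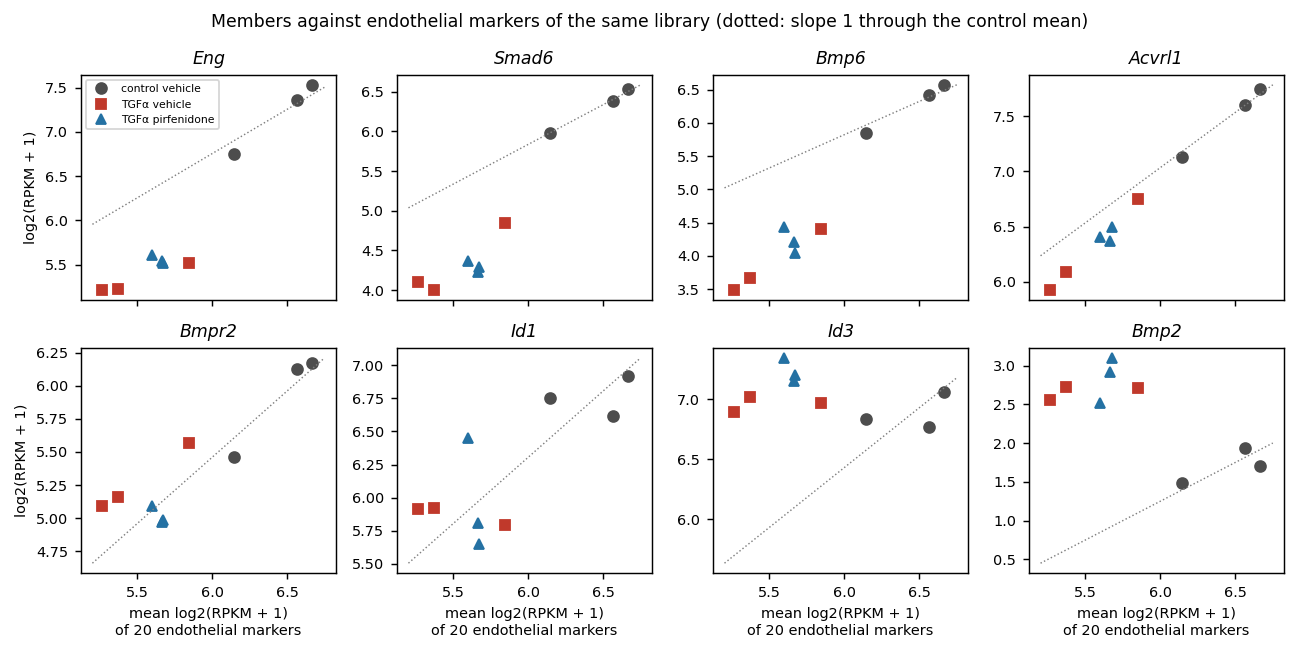
Log2(RPKM + 1) of 8 of the genes (vertical axis) against the mean log2(RPKM + 1) of 20 endothelial markers in the same library (horizontal axis), with 1 symbol per library and shape by group. The dotted line has slope 1 through the control mean. TGFα libraries lie under it for Eng, Smad6 and Bmp6, just under it for Acvrl1 and above it for Id3 and Bmp2.

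Pirfenidone was compared with vehicle in TGFα lungs to ask whether the drug moved the pathway. None of the 10 genes passed limma's test, in either direction. At an unadjusted p under 0.05 there was 1, Id3, and limma-voom on reads recovered from the RPKM also called 0. Of all tested genes 0.7% passed, 97 in number. That total was 2111 without pirfenidone 3 and 4 to 22 without any other single library, and the count among the 10 was 0 in each of these fits.

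Id3 stood at 146, 141 and 162 RPKM in the pirfenidone libraries, above all 3 vehicle libraries (log2 fold change 0.27 ± 0.10 SE, adjusted p = 0.173). Eng stood at 45.0, 45.5 and 47.8 RPKM, just above the highest vehicle value (log2 fold change 0.24, 95% interval -0.18 to 0.66, adjusted p = 0.493). Bmpr2 stood at 30.6, 30.4 and 33.1 RPKM, just below the lowest vehicle value (log2 fold change -0.25, interval -0.70 to 0.19, adjusted p = 0.489). These were the 3 genes of the 10 without overlap, against 24.4% of all tested genes (15.3% higher and 9.13% lower).

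For Smad6 the pirfenidone values were 18.7, 17.8 and 19.6 RPKM (log2 fold change -0.02, 95% interval -0.52 to 0.49, adjusted p = 0.977). For Bmp6 they were 15.5, 17.5 and 20.7 RPKM (0.38, interval -0.22 to 0.97, adjusted p = 0.440). For Acvrl1 they were 89.5, 81.6 and 83.9 RPKM (0.17, interval -0.33 to 0.68, adjusted p = 0.698). All 3 sets of values lay within the range of the vehicle libraries, except that pirfenidone 3 exceeded it for Bmp6.

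Id1 stood at 49.2, 55.1 and 86.3 RPKM on pirfenidone (log2 fold change 0.09, 95% interval -0.33 to 0.52, adjusted p = 0.816), and the value of pirfenidone 3 was above every vehicle library. Without pirfenidone 3 the difference was -0.15 (adjusted p = 0.389). Bmp2 stood at 7.58, 6.58 and 4.74 RPKM (0.18, interval -0.20 to 0.57, adjusted p = 0.569). Bmp4 stood at 26.9, 33.2 and 44.2 RPKM and Bmp5 at 21.6, 25.3 and 34.6, with adjusted p of 0.613 and 0.597. Pirfenidone 3 was the lowest of its group for Bmp2 and the highest for Id1, Bmp4 and Bmp5. The intervals of all 10 genes but Id3 reach past 0.5 on the log2 scale in at least 1 direction, so differences of that size cannot be told from 0 with 3 libraries a group. On the scale relative to endothelial markers none of the 10 was called either, nor by any alternative, and 0.0217% of all tested genes were.

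Pirfenidone-treated TGFα lungs were compared with control lungs to ask what remained different from control on the drug. This comparison shares the control libraries with the first and the pirfenidone libraries with the second, so it is not independent of them. Of the 10 genes 8 passed: Bmp6, Smad6, Eng, Acvrl1, Bmpr2 and Id1 were lower and Bmp2 and Id3 higher. Over all tested genes 18.4% passed, 7.74% lower and 10.6% higher. These were 1072 lower and 1473 higher genes, and with median-of-ratios scaling they were 1356 and 1156. The total of 2545 was 1268 without pirfenidone 1, 1101 without pirfenidone 2, 1133 without control 1 and 1114 without control 2. Groups did not overlap for these 8 genes, against 37.3% of all tested genes (22.5% higher and 14.8% lower). The median log2 fold change was -0.85 over the 10 and 0.05 over all genes tested.

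Bmp6 was 4.39-fold lower than control (log2 fold change -2.05, adjusted p = 0.00234), where it was 5.59-fold lower on vehicle. Smad6 was 4.21-fold lower (adjusted p = 0.00135) and Eng 3.29-fold lower (-1.66, adjusted p = 0.00136), against 4.01-fold and 3.87-fold on vehicle. Bmp2 was 2.74-fold higher (1.14, adjusted p = 0.00398). These 4 genes passed in all 15 alternative fits in both comparisons with control. Bmp6 gave 19.9% to 21.7% of the summed RPKM of the 4 ligands on pirfenidone, below the 53.3% to 57.7% of controls.

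The calls of the other 4 genes were less steady. Acvrl1 was 2.14-fold lower (log2 fold change -1.07, adjusted p = 0.0145), and its adjusted p was 0.0548 without pirfenidone 2, 0.0567 without control 1 and 0.0562 without control 2. Bmpr2 was 1.94-fold lower (-0.90, adjusted p = 0.0164), with 0.0545, 0.0604, 0.0629 and 0.0639 without pirfenidone 1, pirfenidone 2, control 1 and control 2. Id1 was 1.70-fold lower (-0.80, adjusted p = 0.0217), with 0.0672, 0.0810, 0.0812 and 0.0502 without the same libraries in turn. Id3 was 1.27-fold higher (0.34, adjusted p = 0.0414), with 0.0888, 0.0764 and 0.0871 without pirfenidone 1, 2 and 3, 0.145 without control 2, 0.0718 without control 3 and 0.0649 with median-of-ratios scaling. Of all 15 alternatives the call held in 12 for Acvrl1, 11 for Bmpr2, 10 for Id1 and 8 for Id3. For Id1 and Id3 the failures listed above are therefore not all. The count of calls was 4 without pirfenidone 2 or control 2 and 5 without pirfenidone 1 or control 1.

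Id1 to Id3 ratios on pirfenidone were 0.337, 0.390 and 0.533, all below the controls (exact two-sided permutation p = 0.10, the smallest possible; adjusted p = 0.15). Of 20 endothelial markers 15 were lower than control on pirfenidone, with summed RPKM of 1263 to 1302. Relative to these markers 7 of the 10 passed, where 81.4% of all tested genes did. On that scale Bmp6 differed from control by -1.24 (adjusted p = 0.000648), Smad6 by -1.18 (adjusted p = 0.000540) and Eng by -0.84 (adjusted p = 0.00300). Of all tested genes 0.368% were called lower. Acvrl1 (-0.25), Bmpr2 (-0.09) and Id1 (0.02) did not pass, and the 4 genes called higher stood among 81.1% of all genes tested.

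Patterns over the 9 libraries were compared by root mean square (RMS) difference of centred log2(RPKM + 1), leaving out predicted and clone-named genes. Nearest to Eng were Cldn5 (0.15), an endothelial tight-junction gene and itself 1 of the 20 markers, Tspan7 (0.16) and Cyp4b1 (0.16), a lung cytochrome P450. Nearest to Bmp6 were Hpgd (0.20), the prostaglandin-degrading enzyme, Tmcc2 (0.21) and Smad6 (0.23). Hpgd stood at 131 to 242 RPKM in controls, 33.3 to 65.1 in TGFα vehicle lungs and 50.2 to 71.4 on pirfenidone. Nearest to Id1 were Dok4 (0.13), Unc13d (0.13) and Armcx4 (0.15), none of which was in the lists used here.

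Other genes of the pathway were taken from lists by role. The counts that follow stand beside 12% of all tested genes higher and 11.2% lower in TGFα vehicle lungs. In lists this short, counts near those shares give no result of their own. In TGFα vehicle against control lungs, 1 of 4 tested ligands of 10 listed rose, and 3 did not pass. Gdf6, a ligand of the BMP subfamily known from skeletal development, stood at 0.152, 0.128 and 0.151 RPKM in controls and at 6.62, 3.71 and 5.54 in TGFα vehicle lungs (log2 fold change of RPKM + 1 of 2.43, adjusted p = 0.00269). All TGFα libraries were above all controls, and with few reads in controls no fold is given. Gdf6 passed the filter on low values only through the TGFα libraries, where it was high. Gdf5 stood at 0.394 ± 0.405 RPKM in controls and 1.76 ± 0.968 in TGFα vehicle lungs (adjusted p = 0.0904). It too passed the filter only through TGFα libraries, namely TGFα vehicle 2 and 3 and pirfenidone 3. Bmp7 stood at 1.65 ± 0.448 and 1.05 ± 0.253 RPKM (adjusted p = 0.158). Gdf2, which encodes BMP9, the high-affinity ligand of ALK1, did not pass the filter on low values. It stood at 0.299, 0.627 and 0.218 RPKM in controls and was listed at 0 in TGFα vehicle lungs.

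Of 10 other receptors and co-receptors 4 rose and none fell: the type I receptors Acvr1 (ALK2) and Bmpr1a (ALK3), the type II receptor Acvr2b and the co-receptor Rgma. Acvr1 stood at 9.72, 9.95 and 8.10 RPKM in controls and at 13.2, 14.6 and 16.6 in TGFα vehicle lungs (1.60-fold, adjusted p = 0.0105). Bmpr1a stood at 20.1 ± 2.75 and 28.6 ± 2.98 RPKM (1.42-fold, adjusted p = 0.0172). Rgma was 1.52-fold (adjusted p = 0.0292) and Acvr2b 1.496-fold higher (adjusted p = 0.0470). Of the 4 SMADs that carry the signal, Smad5 rose 1.38-fold, from 16.9 ± 0.877 to 23.3 ± 1.501 RPKM (adjusted p = 0.00699). Smad9 stood at 1.71 ± 0.613 and 2.52 ± 0.449 RPKM (adjusted p = 0.194), and Smad1 and Smad4 did not pass either.

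Extracellular antagonists moved both ways, 3 of 11 up and 2 down. Fstl1, a secreted BMP-binding glycoprotein of fibroblasts, rose 2.65-fold, from 42.3, 49.0 and 101 RPKM in controls to 155, 167 and 188 (adjusted p = 0.0193). Control 3, the library with high macrophage markers, was the highest control. Grem1 (gremlin 1) rose from 0.0766 ± 0.0790 to 1.501 ± 0.532 RPKM (adjusted p = 0.0206). Like Gdf6, it passed the filter on low values only through the TGFα libraries. Bmper, which encodes a BMP-binding endothelial regulator, rose 1.92-fold (adjusted p = 0.0398). Chrdl1 (chordin-like 1) fell 3.85-fold, from 2.64 ± 0.536 to 0.685 ± 0.159 RPKM (adjusted p = 0.00354). Chrdl1 would not have passed the filter on low values without the controls, where it was high. Every TGFα vehicle library was under 1 RPKM for it. Crim1 fell 2.14-fold (adjusted p = 0.00745). Summed fibroblast markers stood at 624 to 884 RPKM in controls and 592 to 982 in TGFα vehicle lungs, with 3 of 10 markers lower and none higher. Dcn (decorin) alone stood at 112, 119 and 90.3 RPKM in controls and 467, 161 and 228 in TGFα vehicle lungs, and the other 9 markers summed to 533 to 765 and 430 to 515. Their part in these changes was not tested.

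Of 8 intracellular inhibitors 1 fell, Smurf2, a ubiquitin ligase that targets receptors and SMADs, by 1.52-fold (adjusted p = 0.0196). Smad7, the other inhibitory SMAD, stood at 25.5 ± 3.88 RPKM in controls and 18.1 ± 4.69 in TGFα vehicle lungs (adjusted p = 0.0649). Of 7 other targets, Tmem100, an endothelial gene downstream of ALK1, fell 4.59-fold, from 393, 350 and 244 RPKM to 81.7, 75.5 and 58.0 (adjusted p = 0.00166). The groups did not overlap. Hey1, a target shared with Notch, fell 1.83-fold (adjusted p = 0.0228), and Atoh8 rose 1.65-fold, from 5.13 ± 0.767 to 8.49 ± 0.529 RPKM (adjusted p = 0.0175). Id2 and Id4, the other Id genes, did not pass.

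**Figure D4:**
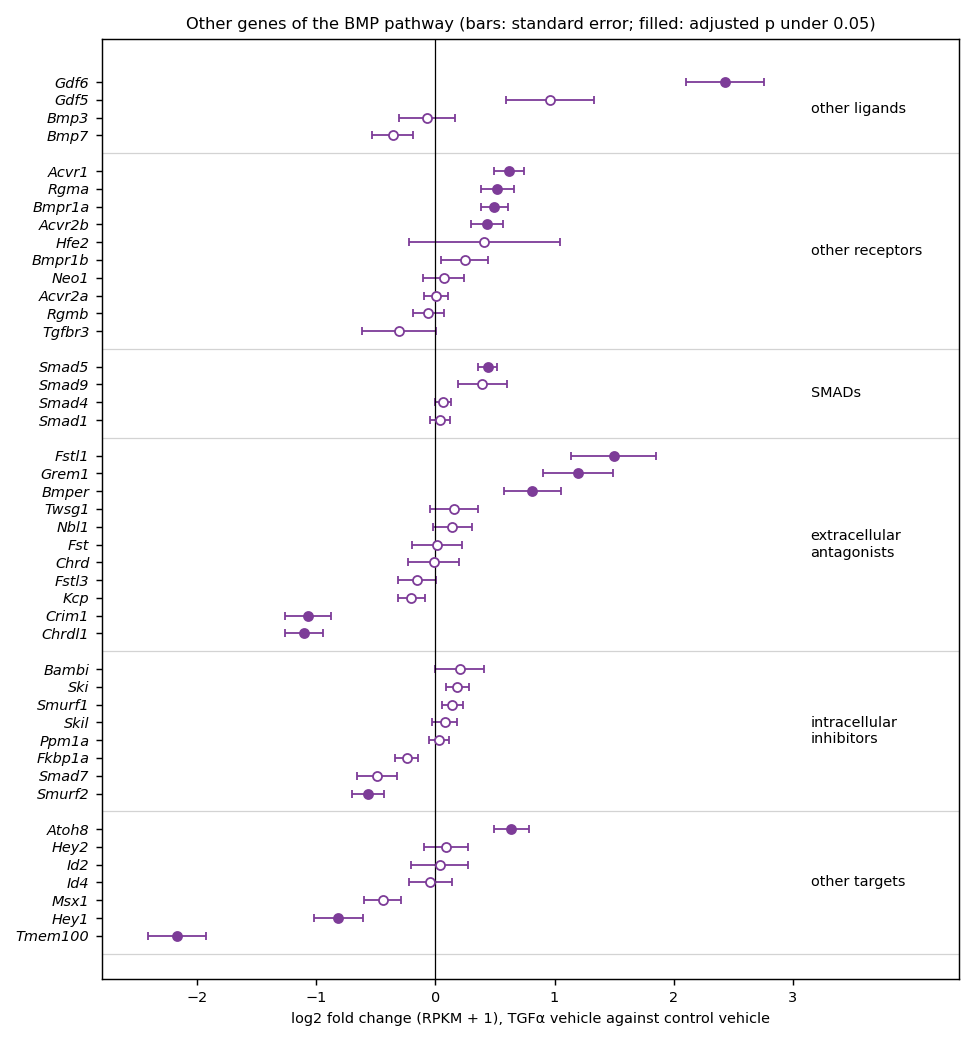
Log2 fold change of RPKM + 1 in TGFα vehicle against control vehicle lungs (horizontal axis) for the tested genes of 6 pathway lists, with bars of 1 standard error; filled points passed an adjusted p of 0.05. Tmem100 lies lowest and Gdf6 highest.

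The calls of Gdf6, Acvr1, Smad5, Chrdl1, Crim1 and Tmem100 in TGFα vehicle against control lungs held in every alternative where the gene was tested. Chrdl1 was not tested with the filter at 5 RPKM. Of these genes, Gdf6 and Chrdl1 passed the main filter only through libraries where they were high. The call of Acvr2b was lost without any 1 of the 6 libraries (adjusted p 0.0616 to 0.145), as was that of Bmper (0.0714 to 0.124), and both also failed with median-of-ratios scaling (0.0525 and 0.0535). Acvr2b failed as well with a pseudocount of 0.1 (0.0561) or 0.5 (0.0511) and with no filter on low values (0.0501). Bmpr1a failed without TGFα vehicle 2 (0.0727) or 3 (0.0716), and Rgma without TGFα vehicle 1, 2 or 3 or control 2 or 3 (0.0598 to 0.0921). Without TGFα vehicle 2, TGFα vehicle 3, control 1 or control 2, the calls of Fstl1 (0.0638 to 0.0725), Grem1 (0.0556 to 0.0825), Hey1 (0.0817 to 0.0879) and Smurf2 (0.0586 to 0.0739) were lost. Atoh8 failed without TGFα vehicle 2, TGFα vehicle 3 or control 1 (0.0549 to 0.0601). Some genes past the filter passed only in an alternative. They were Gdf5 (0.0407) and Smad7 (0.00734) without TGFα vehicle 1, Fkbp1a (0.0250) and Id2 (0.0307) without control 3, and Msx1 (0.0455) when only these groups were fitted. With no filter on low values 6 ligands were tested, and 2 were called higher and 1 lower. Bmp15 (higher) and Gdf2 (lower) were the additions, both under 1 RPKM in every library.

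Between pirfenidone and vehicle in TGFα lungs none of the listed genes passed with all libraries. Without pirfenidone 3 there were 8, in a fit where 2111 of all 13787 tested genes passed, 1050 higher and 1061 lower. Beside that share the count gives no result of its own. Gdf6 (adjusted p = 0.0104), Acvr1 (0.0252), Rgmb (0.0347), Smad1 (0.0150), Bmper (0.00539) and Nbl1 (0.0181) were higher on pirfenidone. Bmpr1b (0.00916) and Acvr2b (0.0136) were lower. With all libraries the nearest were Smad1, at 19.8, 19.8 and 17.5 RPKM on pirfenidone against 15.1, 14.6 and 13.4 on vehicle (adjusted p = 0.0764), and Acvr2b, at 2.14 ± 0.532 against 3.51 ± 0.164 RPKM (adjusted p = 0.0947). Fstl1 stood at 373, 355 and 180 RPKM in pirfenidone 1, 2 and 3 (adjusted p = 0.263) and Gdf6 at 13.2, 11.7 and 4.65 (adjusted p = 0.259). For both genes pirfenidone 3 lay in the vehicle range and the other two above it. The fibroblast marker Dcn was also highest in pirfenidone 1 and 2, at 990, 1017 and 254 RPKM in the 3 libraries, and its part was not tested. The other 9 fibroblast markers summed to 457, 443 and 463 RPKM.

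Against control lungs, the pirfenidone group had Gdf6, Acvr1, Bmpr1a, Rgma, Smad1, Smad5, Bmper, Fstl1, Grem1 and Nbl1 higher and Chrdl1, Crim1, Smurf2 and Tmem100 lower. Acvr1 was 2.21-fold higher (adjusted p = 0.00162), Fstl1 4.73-fold higher (adjusted p = 0.00515) and Bmper 3.34-fold higher (adjusted p = 0.00568). Tmem100 stood at 65.9, 74.2 and 114 RPKM, 3.89-fold lower (adjusted p = 0.00206). Smad1 was 1.36-fold (adjusted p = 0.0125) and Nbl1, an antagonist of the DAN family, 1.58-fold higher (adjusted p = 0.0297). Gdf2 was listed at 0 in pirfenidone 1 and 3 and at 0.0253 RPKM in pirfenidone 2. With no filter on low values Gdf2 was called lower and Bmp15 higher in this comparison too.

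Some of these calls were lost when 1 library was left out. Bmpr1a failed without any 1 of the 6 (adjusted p 0.0620 to 0.131), and Nbl1 failed without any but pirfenidone 3 (0.0605 to 0.0904). Both failed with median-of-ratios scaling (0.0662 and 0.0508), and Bmpr1a with limma without a trend (0.0514). When only these groups were fitted, Bmpr1a (0.0626), Rgma (0.0511), Nbl1 (0.0589) and Smurf2 (0.0588) failed and Smad7 passed (0.0485). Rgma failed without pirfenidone 1, pirfenidone 2 or control 2 (0.0692 to 0.0824), Chrdl1 without pirfenidone 1, control 1 or control 2 (0.0608 to 0.0704), and Crim1 without pirfenidone 2, control 1 or control 2 (0.0593 to 0.0632). Smurf2 failed without pirfenidone 1, pirfenidone 2, control 1 or control 2 (0.0689 to 0.0946), and Smad1 without pirfenidone 2 (0.0530) or control 2 (0.0540). Genes that passed only without 1 library were Bmpr1b (0.0182), Rgmb (0.0431) and Twsg1 (0.0277) without pirfenidone 3, Atoh8 (0.0286) without pirfenidone 2, Bambi (0.0147) without control 2, and Bmp3 (0.0136) and Id2 (0.0364) without control 3. Hey1 passed without control 3 (0.0121).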

How the data were processed

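Lung RNA of 9 libraries (3 per group) was sequenced by the authors. Per the labels' protocols, total RNA was column-purified and libraries followed standard Illumina protocols. Per the submitters' processing notes, bcl2fastq, CASAVA 1.8, TopHat, DESeq and build mm10 were used, with no roles. Of the counting, the sources used here give neither the method nor the strand setting nor the annotation. The authors deposited RPKM for 16165 genes. The unit was settled from the values: for 100% of genes all values were whole reads times a constant, within 0.001 reads, giving 11428709 to 18874158 reads per library. The fit on RPKM did not use the counting error of these reads, so its precision comes from the 3 libraries a group. limma-voom on the recovered reads was run as an alternative.

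Genes above 1 RPKM in at least 3 libraries (13849) were put on the log2(RPKM + 1) scale and fitted by limma-trend (version 3.58.1, in R 4.3.3). A single model over 9 libraries had group as the only term. Tests were two-sided, with Benjamini-Hochberg adjustment over all tested genes and a threshold of 0.05. The pseudocount of 1 understates changes of low genes. A further fit used values relative to the mean of 20 endothelial markers. Ratios within libraries were compared by exact permutation. The design had foreseen a count test had the file held counts. The fits and the read recovery were tested on simulated data. Python 3.11.15, numpy 2.4.6, pandas 2.3.3 and matplotlib 3.10.9 were used.

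The 10 genes, the lists and the alternatives were chosen with earlier results of these data known. In each pathway list any gene past the threshold in some comparison could be named, and at least the 2 with the smallest p were named for TGFα vehicle against control. From the list of extracellular antagonists 1 gene is not reported here, and the counts leave it out. For Eng, Bmp6 and Id1 the 3 tested genes nearest in pattern were named, leaving out predicted and clone-named genes. Exons of Bmp5 share 1878 bases with the antisense gene Gm26903, Bmp6 shares 224 with Txndc5, Acvrl1 127 with Gm16031, Bmp4 89 with Gm15217 and Eng 61 with Fpgs, all on the opposite strand, and reads there cannot be told apart without strand. Alternatives were pseudocounts of 0.1 and 0.5, no filter, a filter at 5 RPKM, median-of-ratios scaling, fits of the compared groups alone, a replicate block, limma without trend, limma-voom on recovered reads, and leaving out each library.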

Additional observations from a re-analysis of the deposited data

How the results depend on the processing

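Against control, the calls of Eng, Smad6, Bmp6 and Bmp2 held in all 15 alternatives, and the count of 0 between pirfenidone and vehicle held in all. Leaving out single libraries left 6 to 7 calls among the 10 genes for TGFα vehicle against control and 4 to 7 for pirfenidone against control. The labels do not say that libraries of the same number were matched. Correlations between same-numbered libraries of different groups ran from -0.136 to 0.458, and between differently numbered ones from -0.607 to 0.471. With the replicate block the calls among the 10 genes were 7 for TGFα vehicle and 8 for pirfenidone against control and 0 between them, as without it; relative to endothelial markers they were 7, 7 and 0. Among the other pathway genes it ended the calls of Acvr2b (adjusted p = 0.0739) and Bmper (0.0504) and added Smad7 (0.0245) for TGFα vehicle against control, and it added Smad7 (0.0342) and Hey1 (0.0224) for pirfenidone against control. Over all genes the block gave 21 calls between pirfenidone and vehicle, where there were 97 without it, and fitting those groups alone gave 11.

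The genes whose sign turned were not called in the comparison concerned, and the cause was not tested. Median-of-ratios scaling gave Bmp5 -0.023 for pirfenidone against control. The median over endothelial markers gave Id1 0.022 for pirfenidone against vehicle and Bmpr2 0.11 for pirfenidone against control. Without single libraries, log2 differences ranged as follows. For pirfenidone against vehicle Id1 ran from -0.15 to 0.25 and Smad6 from -0.17 to 0.25, and for pirfenidone against control Bmp4 ran from -0.22 to 0.13 and Bmp5 from -0.19 to 0.18. Relative to endothelial markers, Id1 ran from -0.056 to 0.29 for TGFα vehicle against control, from -0.32 to 0.12 for pirfenidone against vehicle and from -0.24 to 0.19 for pirfenidone against control. In pirfenidone against vehicle on that scale Bmp2 ran from -0.12 to 0.17, Acvrl1 from -0.029 to 0.095 and Id3 from -0.049 to 0.21. Without pirfenidone 3, Bmp4 and Bmp5 on that scale were no longer called against control (adjusted p 0.0740 and 0.0744), which left 5 of 7 calls. Without 1 library a group keeps 2, and with 3 the fits cannot resolve differences smaller than the intervals given beside each gene.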
